A study of Homo sapiens with 9 samples.

Results

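The plexins are a family of 9 transmembrane receptors in the human genome, and all 9 genes (PLXNA1 to PLXNA4, PLXNB1 to PLXNB3, PLXNC1 and PLXND1) are described here, out of 19970 protein-coding genes with a position in the RefSeq annotation. The genes were listed by name, and the family was chosen by the covered length of PLXNA4 under DNA:RNA hybrid peaks, which differed between the genotypes in the untreated libraries. The PLXNA4 difference is therefore given as a description with no test, and tests are given for the other 8 genes. Each gene was measured over its RefSeq GRCh38 span plus 1 kb on each side.

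Plexins bind semaphorins, secreted or membrane-held guidance proteins, and the cytoplasmic part of a plexin acts on small GTPases such as Rap, which changes the actin cytoskeleton and adhesion of growing axons. A-type plexins receive most secreted class 3 semaphorins through neuropilin co-receptors, and they also bind membrane-held class 6 semaphorins directly. DNA:RNA hybrids form where a nascent transcript pairs with its template strand, often near gene starts and ends, and the S9.6 antibody used in DRIP-seq recovers the DNA of such structures.

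All libraries were made from SH-SY5Y, an established human neuroblastoma line, stably transduced with a lentivirus that carries a short hairpin RNA behind a U6 promoter. In the shTDP43 group the hairpin targets TDP-43, the product of TARDBP, which binds RNA and DNA, and in the shNC group it is a negative control; both groups went through puromycin at 2 µg/mL for 2 weeks and then 1 µg/mL. From each group 3 libraries were untreated, and 1 further library came from 6 µg of nucleic acid digested for 6 h with RNase H, which degrades the RNA of a hybrid. 1 input sample is named as well and was not analysed here. The sources do not say whether replicates are separate transductions or cultures, so p-values measure only the spread between these libraries.

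On chromosomes 1 to 22 and X, untreated lists held 57204 to 70016 peaks over 91.6 to 130.9 Mb in shTDP43, and 69453 to 73353 peaks over 125.5 to 142.0 Mb in shNC. After RNase H, 8868 peaks (5.66 Mb) were left in the shTDP43 library and 15504 (10.5 Mb) in the shNC library. The lists hold no read counts, so depth was read back as the lowest background pileup that the fold and p-value of a peak imply. This relative depth was 1.05, 1.68 and 1.94 in shTDP43 replicates 1, 2 and 3, and 2.01, 1.93 and 1.62 in shNC replicates 1, 2 and 3, so shTDP43 replicate 1 was the shallowest untreated library. It was 0.991 in the RNase H library of shTDP43 and 0.936 in that of shNC. Coverage of TARDBP itself, scaled to the median library total, was 9616, 9928 and 10072 bp in shTDP43, against 12920, 10226 and 13071 bp in shNC (log2 change −0.28 ± 0.12 SE; limma adjusted p = 0.444), and hybrid coverage does not measure the knockdown. Of the adrenergic markers known of the line, HAND2, GATA3, DBH and ISL1 carried peaks in every untreated library, while TH carried none in any library.

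The 9 genes fell into 3 kinds of hybrid coverage. The first kind was covered over most of its length in both genotypes, and held PLXNA1, the B-type plexins and, less fully, PLXNA3. Mean coverage of the PLXNA1 window, a receptor for class 3 and class 6 semaphorins, was 95.4% ± 5.04 in shTDP43 and 99.0% ± 1.32 in shNC (SD, n = 3 each). PLXNB1, the receptor for SEMA4D, had 99.1% ± 1.59 in shTDP43 and 99.8% ± 0.41 in shNC. PLXNB2, a receptor for SEMA4C, had 87.3% ± 4.12 in shTDP43 and 88.3% ± 2.67 in shNC. In each of these genes the groups overlapped, and PLXNB3, a receptor for SEMA5A, was likewise covered over 96.0% ± 2.19 of its window in shTDP43 and 94.0% ± 2.67 in shNC. PLXNA3, which acts with NRP2 in SEMA3F signalling, had 62.4% ± 12.4 in shTDP43 and 56.7% ± 5.41 in shNC. The second kind, PLXNA2, PLXNA4 and PLXND1, carried separate peaks over a part of the gene. PLXNC1, a receptor for SEMA7A, was the third kind, nearly free of peaks, with 0.88% ± 0.37 in shTDP43 and 0.63% ± 0.54 in shNC. The strongest PLXNC1 peak of each library had, as the authors' own value, a −log10 q of 3.07, 2.62 and 4.37 in shTDP43, against 3.52, 4.41 and 3.46 in shNC, and no PLXNC1 peak in any library reached 5.

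**Figure D1:**
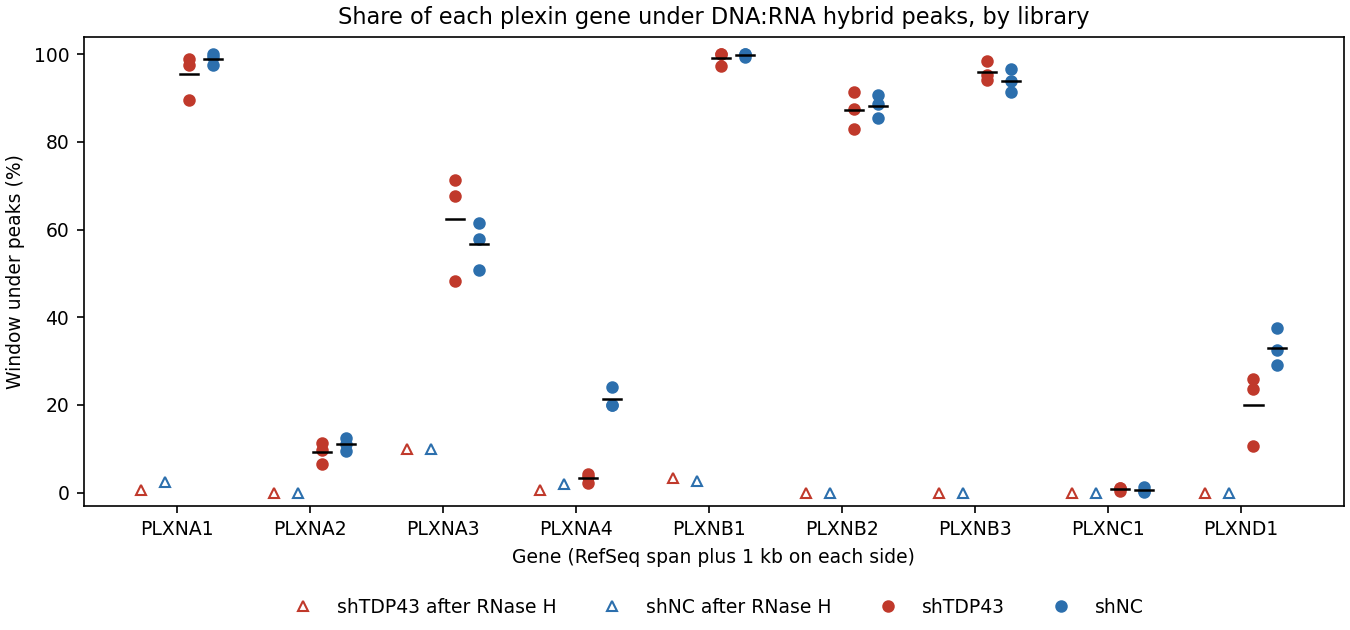
Percentage of each gene's window (RefSeq span plus 1 kb on each side) that lies under peaks, one symbol per library: open triangles, the single RNase H library of each genotype; filled circles, untreated libraries; bars, means of 3. PLXNA4 stands at 3.34% in shTDP43 and 21.4% in shNC, and PLXNB1 at 99.1% in shTDP43 and 99.8% in shNC.

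The plot of percentage covered shows the spread within a group beside the distance between groups. The order of mean coverage in shNC was PLXNB1, PLXNA1, PLXNB3, PLXNB2, PLXNA3, PLXND1, PLXNA4, PLXNA2 and PLXNC1. The shNC ranges of neighbours in this order overlapped for PLXNB1 and PLXNA1 and stood apart for every other pair. PLXND1, next above PLXNA4, had 29.0% or more where PLXNA4 had at most 24.2%. In shTDP43 libraries PLXNA4 (3.34% ± 1.05) lay below PLXNA2 (9.26% ± 2.39), whereas in shNC it lay above it (21.4% ± 2.46 for PLXNA4 and 11% ± 1.45 for PLXNA2).

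3 stretches of sequence upstream of plexin starts are shown, because that of PLXND1 differs from those of PLXNA4 and PLXNA1 in whether peaks lie on it. Each is the 250 bases before a RefSeq start, read from RefSeq GRCh38.p14 on the coding strand, with every CG pair in capitals. The PLXNA4 stretch, chr7:132576471-132576720 on the minus strand, lies inside the annotated span, which begins further upstream, and was fully under peaks in all 6 untreated libraries. That of PLXNA1, chr3:126982865-126983114 on the plus strand, did too. The PLXND1 stretch, chr3:129606677-129606926 on the minus strand, is also rich in CG pairs but held no peak in any library.
PLXNA4: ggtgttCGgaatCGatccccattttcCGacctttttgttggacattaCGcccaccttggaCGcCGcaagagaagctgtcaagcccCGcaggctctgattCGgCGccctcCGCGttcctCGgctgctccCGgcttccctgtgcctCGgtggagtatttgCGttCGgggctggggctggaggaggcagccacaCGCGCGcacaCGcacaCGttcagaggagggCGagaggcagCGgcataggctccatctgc
PLXNA1: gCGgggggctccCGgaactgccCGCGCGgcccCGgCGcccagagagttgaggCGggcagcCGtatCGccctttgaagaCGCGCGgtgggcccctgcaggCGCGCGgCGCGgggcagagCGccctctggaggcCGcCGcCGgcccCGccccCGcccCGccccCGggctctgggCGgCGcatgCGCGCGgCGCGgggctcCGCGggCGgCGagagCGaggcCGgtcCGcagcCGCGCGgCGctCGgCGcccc
PLXND1: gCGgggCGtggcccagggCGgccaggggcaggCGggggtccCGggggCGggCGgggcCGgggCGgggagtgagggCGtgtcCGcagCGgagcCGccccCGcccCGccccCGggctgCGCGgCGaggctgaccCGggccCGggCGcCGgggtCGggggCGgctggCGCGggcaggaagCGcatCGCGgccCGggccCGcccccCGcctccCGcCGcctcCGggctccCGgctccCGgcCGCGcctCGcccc
These stretches hold 23, 46 and 41 CG pairs. With 50 bases past the start included, the windows had a G+C content of 64.3% for PLXNA4, 83.0% for PLXNA1 and 87.3% for PLXND1, beside a median of 62.3% over 22131 windows of 15811 genes. The PLXND1 window held no peak in any shTDP43 library and 44 bp in shNC replicate 2 alone, all of it past the start. That of PLXNA3, at 83.3% G+C, held none in shTDP43 and was covered over 300 and 215 bp in shNC replicates 2 and 3. G+C content thus did not order the plexin starts by coverage. Among all promoter windows, 40.1% to 49.4% overlapped a peak in shTDP43 libraries and 48.5% to 52.0% in shNC libraries. None of the 11 plexin windows held, on either strand, a site of the enzymes that cut the nucleic acids (TGTACA for BsrGI, GAATTC for EcoRI, AAGCTT for HindIII, AATATT for SspI and TCTAGA for XbaI), letters found in 2.78% to 5.30% of all windows. No peak of an RNase H library lay on any plexin window.

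PLXNA4 encodes a receptor that carries SEMA3A signals together with NRP1 and binds SEMA6A directly. Its span runs on the minus strand of chromosome 7 from 132123340 to 132648688, 525.3 kb, the longest of the family. Peaks covered 11.5, 19.1 and 22.2 kb of its window in shTDP43 replicates 1, 2 and 3, against 127.7, 105.2 and 105.2 kb in shNC replicates 1, 2 and 3. All 3 shTDP43 libraries were far below all 3 shNC libraries, and the shTDP43 mean was 15.6% of the shNC mean. The number of peaks was 11, 17 and 15 in shTDP43, against 102, 82 and 94 in shNC. The median width of a peak was 501, 672 and 446 bp in shTDP43 and 597, 546 and 536 bp in shNC, with overlapping groups. The widest peak was 2827, 4612 and 5502 bp in shTDP43, against 11012, 9368 and 9886 bp in shNC. The genotypes thus stood apart in the number of peaks and in the width of the widest. The log2 change of scaled covered length was −2.52 ± 0.11 (SE), with 100 bp added before taking logs. Without shTDP43 replicate 1, the shallowest untreated library, the log2 change was −2.41, and with every list cut to the same number of peaks it was −2.55. These are bulk libraries, in which hybrids present in fewer cells and fewer hybrids per cell cannot be told apart.

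**Figure D2:**
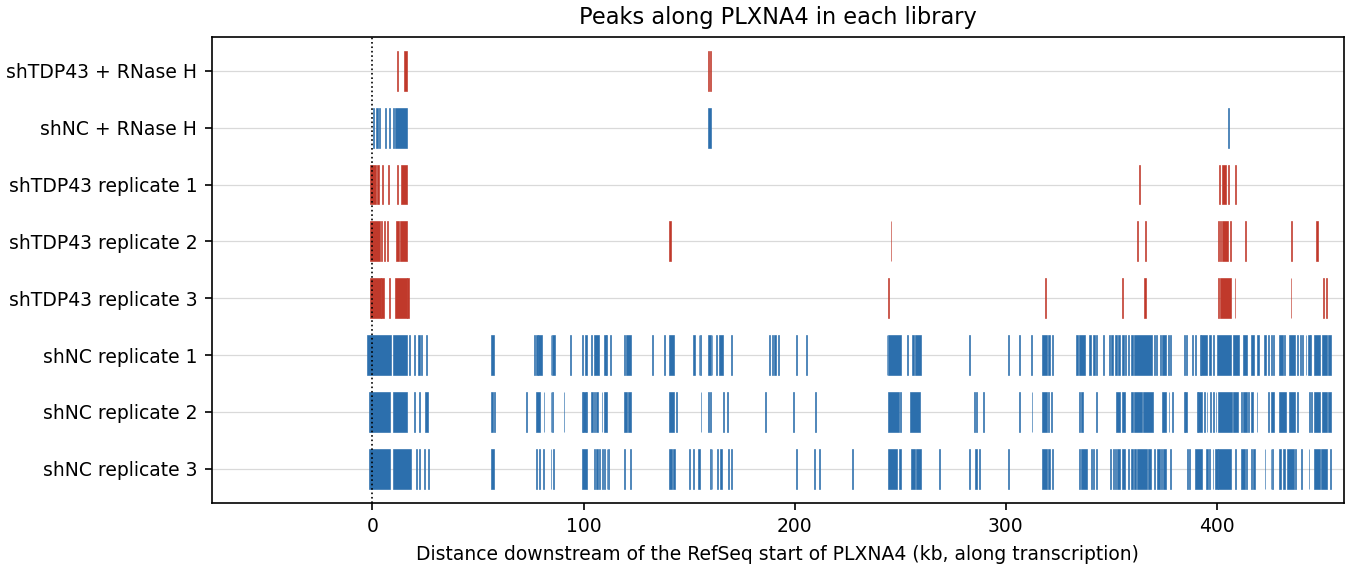
Position of every peak along PLXNA4 in the 8 libraries, as kb downstream of the RefSeq start (dotted line); bars have a thin outline so that the narrowest remain visible. Peaks of shTDP43 libraries gather in the first 25 kb and near 400 kb, whereas shNC libraries carry peaks from the start to the far end.

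Coverage changed shape along the gene. In the first 25 kb downstream of the start, peaks covered 9.43 ± 2.54 kb in shTDP43 and 17.5 ± 1.27 kb in shNC (SD, n = 3 each). Over the rest of the gene they covered 7.14 ± 3.00 kb in shTDP43 and 93.5 ± 11.8 kb in shNC. The shTDP43 mean was thus 53.8% of the shNC mean in the first 25 kb and 7.64% of it beyond. Between 150 and 175 kb, where shNC libraries had 6.42, 2.33 and 5.05 kb, the untreated shTDP43 libraries had none. Likewise no shTDP43 library had a peak between 375 and 400 kb, where shNC libraries had 8.63, 7.62 and 7.90 kb. One distal stretch held more: between 400 and 425 kb coverage was 3.40, 4.73 and 6.25 kb in shTDP43, against 15.2, 12.8 and 10.6 kb in shNC. More than 25 kb upstream of the start, where the annotated span still continues, no library had a peak.

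**Figure D3:**
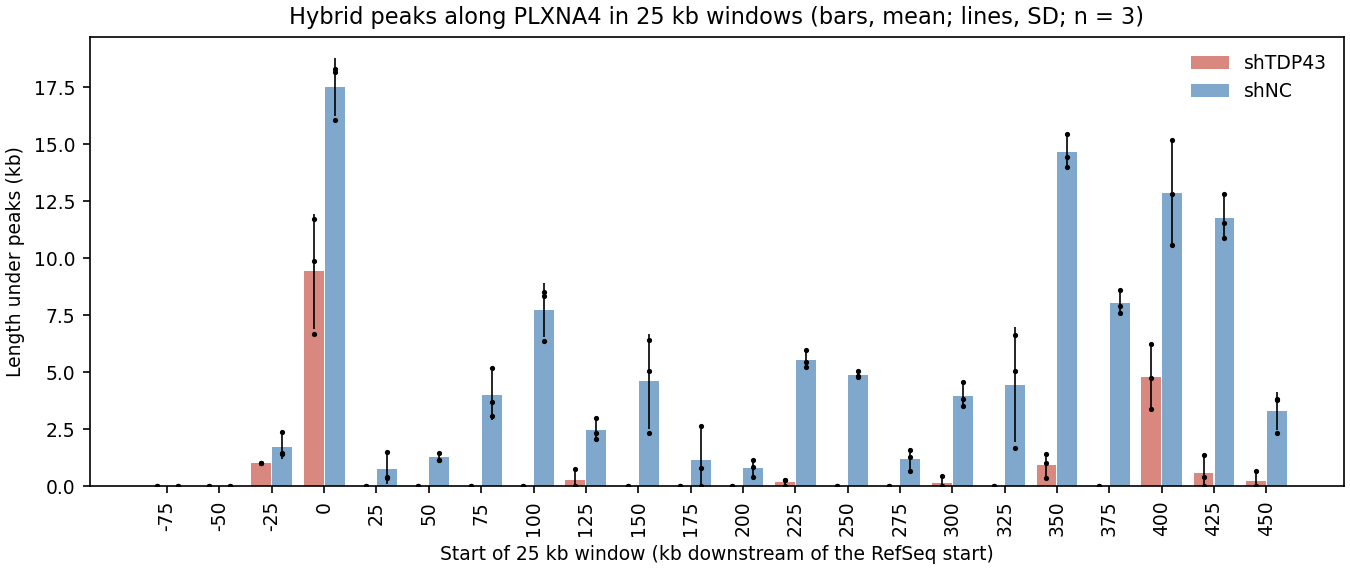
Length under peaks in consecutive 25 kb windows along PLXNA4, numbered from the RefSeq start: bars, means of 3 untreated libraries; lines, SD; dots, single libraries. The window at the start has 9.43 kb in shTDP43 and 17.5 kb in shNC, and the window at 375 kb has 0 kb in shTDP43 and 8.05 kb in shNC. The first and last windows hold less than 25 kb of the gene.

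The 25 kb windows are summed peaks, and merged regions describe the same peaks, by which PLXNA4 was chosen, in another way. Merging the peaks of the 6 untreated libraries gave 120 regions in PLXNA4. Of these, 4 held a peak in all 6 libraries: at 132567821 to 132578832, which includes the start, at 132558351 to 132566824, at 132206953 to 132215638 and at 132169505 to 132177304. A further 9 held peaks of both genotypes but not of every library. The remaining 107 held peaks of shNC libraries and of no shTDP43 library, and 27 of them (54.6 kb) held a peak in all 3 shNC libraries. No region held shTDP43 peaks alone. Over the whole genome, 29.0% of 99429 regions had shNC peaks alone, 1.27% had a peak in all 3 shNC and no shTDP43 libraries, and 18.3% had shTDP43 peaks alone. Within the 8686 bp region at 132206953, peaks covered 355, 1024 and 951 bp in shTDP43, against 8410, 8190 and 6809 bp in shNC. The region at 132169505 was covered more evenly, with 2917, 4406 and 5843 bp in shTDP43 and 6821, 6721 and 7356 bp in shNC.

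The strongest peak of PLXNA4 had its summit 1.23, 1.25 and 1.21 kb downstream of the start in shNC replicates 1, 2 and 3. In shTDP43 the strongest summits lay 16 kb downstream in replicate 1, at −1.03 kb (upstream) in replicate 2 and 16.1 kb downstream in replicate 3. Peak strength is the authors' own value per list, so these are positions within each list and not a comparison of heights. The antisense lncRNA genes inside the span had little coverage: PLXNA4-AS1 held none in shTDP43 and 225, 394 and 840 bp in shNC. The peak lists carry no strand, so hybrids of PLXNA4 and of its antisense genes cannot be told apart.

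The stretches around PLXNA4 differed less between genotypes than the gene did. In the 1 Mb at lower coordinates, past the end of the gene, peaks covered 29.6 ± 6.27 kb in shTDP43 and 35.1 ± 3.10 kb in shNC, or 84.2%. In the 1 Mb at higher coordinates they covered 35.7 ± 10.4 kb in shTDP43 and 57.1 ± 2.57 kb in shNC, or 62.6%. Chromosome 7 without the gene stood at 88.4%, and it made up 5.94% to 6.09% of all covered length in shTDP43 and 5.87% to 6.09% in shNC. PODXL, the nearest tested gene at lower coordinates and 566.7 kb away, had 13.7, 17.3 and 19.5 kb in shTDP43 and 19.3, 15.3 and 17.0 kb in shNC. Its groups overlapped, with a log2 change of 0.15 ± 0.10 (limma adjusted p = 0.611) that was −0.040 without scaling. CHCHD3, a mitochondrial inner membrane protein gene 136.2 kb away at higher coordinates, had 13.0, 22.1 and 21.2 kb in shTDP43 and 31.1, 28.7 and 26.8 kb in shNC. The groups did not overlap, as was so with shTDP43 lower in 14% of all genes tested, and the log2 change of −0.46 ± 0.09 did not pass (limma adjusted p = 0.0698, between 0.0384 and 0.719 over the alternatives). It passed without shTDP43 replicate 1 (0.0384), with equal peak numbers (0.0432) and with a pseudocount of 1000 bp (0.0477). Of the 150 genes within 500 kb of any plexin, 96 were tested and limma called 0 in either direction, with 7 higher and 10 lower at an unadjusted p under 0.05, where 3.83% of all genes tested were higher and 7.67% lower.

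The other 8 plexins were tested in the fit over 12810 genes. That fit called 118 genes (0.921%), 96 lower in shTDP43 (0.749%) and 22 higher (0.172%). Without shTDP43 replicate 1 the counts were 166 lower and 57 higher. None of the other 8 was called, while 1 was higher and 1 lower at an unadjusted p under 0.05, beside 3.83% and 7.67% of all genes. Their median log2 change was 0.18, beside 0.05 over all genes tested. A gene of constant covered length also has a change of this size after scaling to the library total. CFL1 and MICAL1 had 5.508 and 13.661 kb in every untreated library, and each had a scaled log2 change of 0.19. Without scaling the median of all genes was −0.15.

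Among the plexins covered over most of their length the log2 change was 0.14 ± 0.11 for PLXNA1, 0.19 ± 0.13 for PLXNB1 and 0.18 ± 0.11 for PLXNB2 (limma adjusted p = 0.635, 0.635 and 0.618), and without scaling these were −0.055, −0.010 and −0.016. PLXNB3 had 0.22 ± 0.14 (adjusted p = 0.593). PLXNA1 and PLXNB1 were covered almost from end to end and could gain little covered length, so a gain in hybrid level there was not detectable from these lists. In PLXNB1 a single peak of 33173 bp or longer covered at least 99.3% of the window in every untreated library except shTDP43 replicate 1, which had 2 peaks. In PLXNA1 one peak of 35829 bp, on chromosome 3 from 126981611 to 127017439, had the same edges to the base in shTDP43 replicate 2 and in shNC replicates 1 and 2. The nucleic acids had been cut with the restriction enzymes named above. Whether shared peak edges, here and in other plexins, lie at their sites was not tested. The antisense gene PLXNB3-AS1, on chromosome X from 153734852 to 153766471, overlaps only the beginning of PLXNB3, which starts at 153764249. Most of the antisense gene thus lies outside PLXNB3. Over its whole length PLXNB3-AS1 had 12969, 15539 and 15782 bp under peaks in shTDP43 and 16472, 15600 and 14602 bp in shNC. Peaks in the stretch shared with PLXNB3 cannot be assigned to a strand from the lists.

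PLXNA3 was the gene that was higher at an unadjusted p under 0.05. Its coverage was 10.4, 14.5 and 15.3 kb in shTDP43, against 12.4, 13.2 and 10.9 kb in shNC. The highest pair of libraries and the lowest library were all shTDP43, so the groups overlapped, and the log2 change of 0.32 ± 0.10 did not pass (limma adjusted p = 0.252, between 0.177 and 0.863 over the alternatives). LAGE3 overlaps the end of the PLXNA3 window and had 1420 to 1507 bp of its own under peaks in every untreated library.

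PLXND1, the receptor that SEMA3E can bind without a neuropilin, was the 1 gene of the other 8 whose groups did not overlap, a share near the 14% of all genes tested in which no shTDP43 library reached the lowest shNC library. Coverage was 5.64, 13.9 and 12.6 kb in shTDP43, against 20.1, 17.4 and 15.5 kb in shNC. The log2 change was −0.62 ± 0.20 and did not pass (limma adjusted p = 0.252). It was −0.38 without shTDP43 replicate 1, the shallowest library, again not called (adjusted p = 0.119). With only peaks of −log10 q of at least 10 the gene was called lower (limma adjusted p = 0.00946, between 0.00946 and 0.727 over the alternatives): it was then listed at 0 in all 3 shTDP43 libraries and held 16.4, 10.2 and 13.3 kb in shNC. Most of its coverage lay in 2 regions far from the start, on chromosome 3 from 129569945 to 129579415 and from 129555247 to 129562880, each present in all 6 libraries. The first held 2970, 6781 and 7438 bp in shTDP43 and 9471, 7972 and 7653 bp in shNC. The second held 2340, 5893 and 4849 bp in shTDP43 and 7347, 6550 and 7097 bp in shNC.

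PLXNA2, a receptor for SEMA6A in the nervous system, is the second longest plexin gene at 222.1 kb. Peaks covered 14.9, 21.9 and 25.4 kb in shTDP43, against 27.8, 24.8 and 21.3 kb in shNC. The groups overlapped, with a log2 change of −0.08 ± 0.10 (limma adjusted p = 0.695). In its first 25 kb coverage was 4.65 ± 1.97 kb in shTDP43 and 7.48 ± 0.62 kb in shNC, and over the rest it was 15.8 ± 3.63 kb in shTDP43 and 16.9 ± 2.64 kb in shNC. The shTDP43 mean was 62.1% of the shNC mean at the start and 93.7% beyond it. In PLXND1 it was 24.1% at the start and 65.2% beyond. The PLXND1 start held little, 0.331, 0.687 and 0.296 kb in shTDP43 and 2.10, 2.58 and 0.762 kb in shNC, so its percentage rests on short lengths. In PLXNA2 and PLXND1 the start had the lower percentage, and in PLXNA4 the rest had. Of 33 merged regions, 8 held a peak in all 6 libraries, 6 held shTDP43 peaks alone and 13 shNC peaks alone. PLXNC1 had 0.737, 1.62 and 1.88 kb in shTDP43 and 0.661, 0.374 and 2.00 kb in shNC, and its log2 change of 0.81 ± 0.60 did not pass (limma adjusted p = 0.635). The coding gene CEP83, on chromosome 12 from 94265662 to 94460454, overlaps PLXNC1. Merged regions of PLXNC1 from 94274344 to 94301444 lie inside both genes, and the lists carry no strand.

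**Figure D4:**
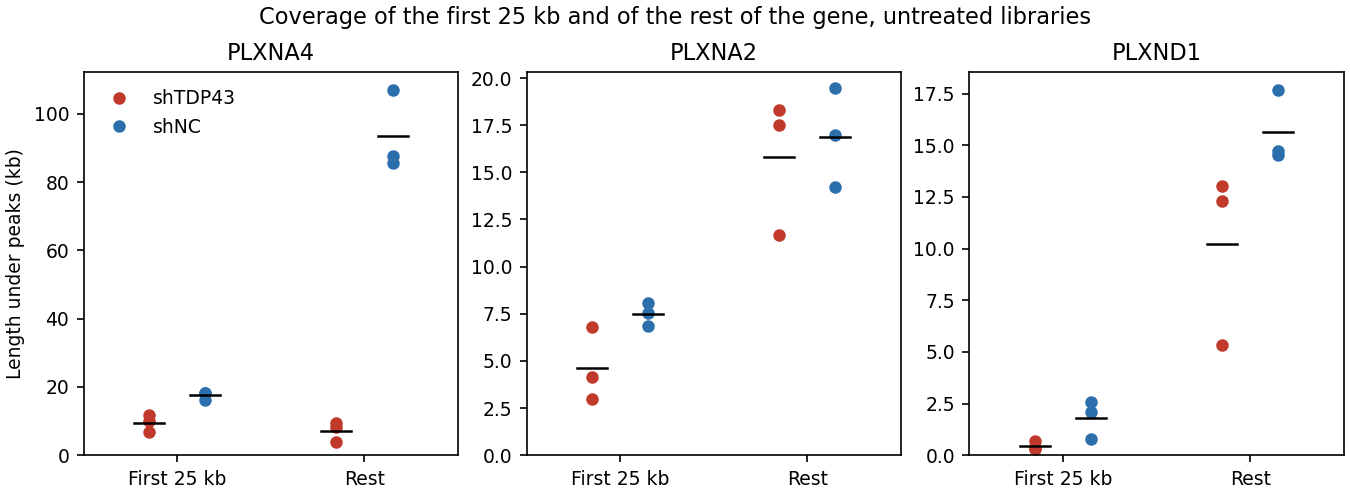
Length under peaks in the first 25 kb downstream of the start and in the rest of the gene, for the 3 plexins with partial coverage: dots, untreated libraries; bars, means of 3. PLXNA4 has 7.14 kb in shTDP43 and 93.5 kb in shNC beyond the first 25 kb, and PLXNA2 has 15.8 kb in shTDP43 and 16.9 kb in shNC; the vertical scales differ.

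To set the shape of PLXNA4 beside other long genes, the same division was made in 200 other genes of at least 200 kb. Each had a shNC mean of at least 2 kb under peaks in both parts, a filter on shNC alone that favours lower ratios. In these 200 genes the median ratio of the shTDP43 to the shNC mean was 82.9% in the first 25 kb and 75.8% in the rest. The 10th to 90th percentile of the rest ran from 34.2% to 102.8%. PLXNA4, chosen for its difference, had 7.64%. Of all genes with a span of at least 400 kb, 305 were tested, of which 14 were called lower and 3 higher. Over all genes tested, 0.749% were called lower and 0.172% higher. PLXNA4 is included among the 305 and among the 14. It was chosen for its difference, so its place there is no test of it and adds no support to the counts. The median log2 change of the 305 was −0.21. Long genes as a class thus had lower values than the median gene (0.05), and PLXNA4 is the only plexin of that length.

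The genes whose pattern over the 6 untreated libraries was most like PLXNA4 were ARHGAP22, NEIL2, TNS3, SMAGP and ZBTB7C, by a mean absolute difference of 0.14, 0.16, 0.26, 0.27 and 0.30 in centred log2 scaled length. ARHGAP22, a GTPase-activating protein for Rac, had 2.35, 5.15 and 5.99 kb in shTDP43 and 29.0, 23.6 and 22.6 kb in shNC. TNS3, which encodes the focal adhesion protein tensin 3, had 2.54, 3.06 and 3.02 kb in shTDP43 and 15.4, 16.7 and 12.4 kb in shNC. Both are long genes, of 226.4 and 307.4 kb, but NEIL2, a DNA glycosylase of base excision repair, spans 17.6 kb and had 0.301, 0.381 and 0.416 kb in shTDP43 and 3.57, 3.50 and 2.87 kb in shNC. In each of these 5 genes all shTDP43 libraries were below all shNC libraries, which the measure of likeness selects for.

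The ligands, co-receptors and intracellular partners of plexins were followed in 3 lists of 61 genes. Of these 48 were tested and 1 was called lower and 0 higher in shTDP43, beside 0.749% and 0.172% of all genes; without shTDP43 replicate 1, 3 were called lower. At an unadjusted p under 0.05 there were 4 higher and 6 lower, beside 3.83% and 7.67% of all genes, and the median log2 change was 0.10 beside 0.05 over all genes. Among 20 semaphorins 14 were tested and limma called none, with 2 higher and 1 lower at an unadjusted p under 0.05 (3.83% and 7.67% of all genes). SEMA4D, the ligand of PLXNB1, had 29.1, 47.4 and 48.3 kb in shTDP43 and 45.7, 38.9 and 37.4 kb in shNC, with overlapping groups and a log2 change of 0.20 ± 0.08 (limma adjusted p = 0.403). SEMA4B and SEMA3B, the next most covered ligand genes, changed by −0.15 ± 0.11 and 0.17 ± 0.13 on the log2 scale, neither passing (adjusted p = 0.635 for both), and SEMA3B was at −0.021 without scaling. SEMA5B had the smallest adjusted p of the ligands (0.0783), with 0, 0 and 0.558 kb in shTDP43 and 5.08, 4.26 and 1.77 kb in shNC; it was singled out after its values were seen.

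**Figure D5:**
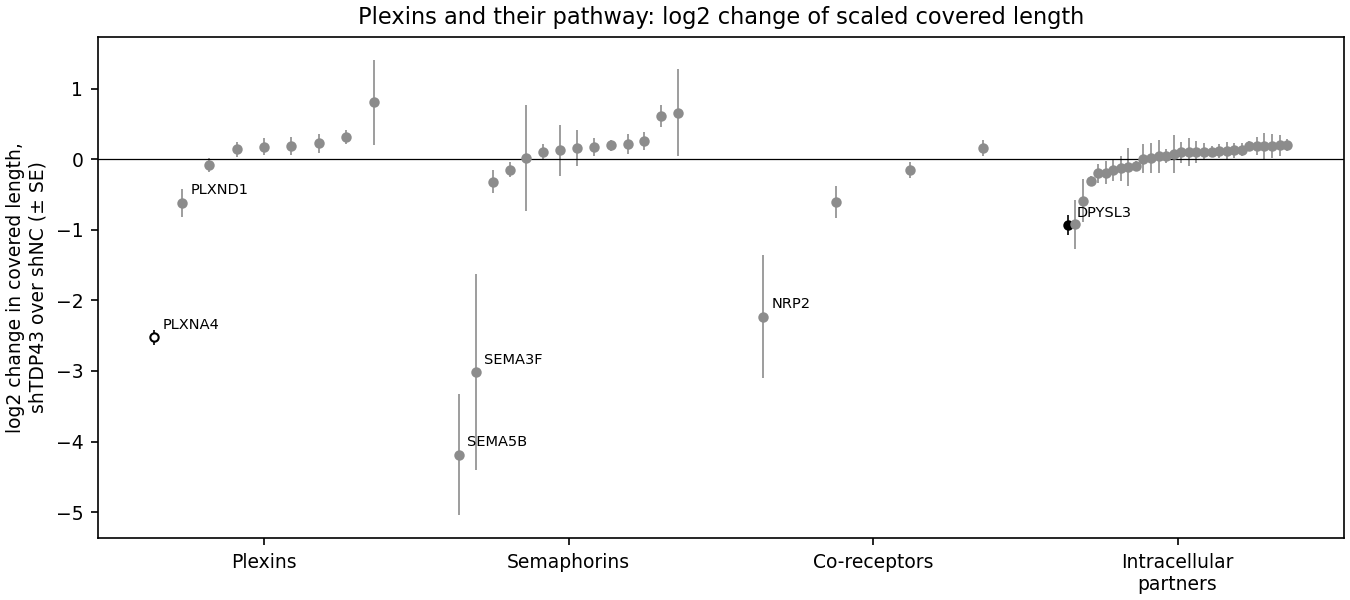
Log2 change of scaled covered length, shTDP43 over shNC, for every tested plexin, semaphorin, co-receptor and intracellular partner, sorted within each list; lines, SE; black filled, called by limma (DPYSL3); white filled, PLXNA4, shown without a test. Most points lie within 0.3 of 0, and PLXNA4 stands at −2.52.

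Of 8 co-receptor genes only 4 passed the filter of 500 bp mean coverage, and limma called none, with 2 lower and 0 higher at an unadjusted p under 0.05 (7.67% and 3.83% of all genes). L1CAM, a neural adhesion molecule that joins neuropilin in SEMA3A reception, had a log2 change of 0.16 ± 0.11, which was −0.038 without scaling. ERBB2, a kinase that associates with B-type plexins, had −0.16 ± 0.11, and NRCAM, an adhesion molecule of the L1 family, had −0.61 ± 0.23 (limma adjusted p = 0.635, 0.635 and 0.346 for the 3 genes); with only peaks of −log10 q of at least 10, ERBB2 stood at 0.17 and NRCAM at 0.29. NRP1, the neuropilin that acts with PLXNA4, held no peak in untreated shTDP43 libraries and 0.244, 0.288 and 0.465 kb in shNC, too little to be tested.

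Among 33 intracellular partners 30 were tested and DPYSL3 was called lower. It encodes a member of the collapsin response mediator proteins, cytoskeletal phosphoproteins that relay SEMA3A signals in growth cones. Its coverage was 4.67, 6.48 and 5.70 kb in shTDP43, against 15.3, 10.4 and 11.7 kb in shNC, so the groups did not overlap. The log2 change was −0.94 ± 0.14 (limma adjusted p = 0.0266, between 0.0150 and 0.719 over the alternatives). The call ended without any 1 of the 3 shNC libraries (adjusted p = 0.165, 0.0685 and 0.167), without shTDP43 replicate 3 (0.0618), without scaling (0.291), without a variance trend (0.103), without peaks also called after RNase H (0.0528) and at stricter peak thresholds. Its relatives CRMP1 and DPYSL2 changed by 0.11 ± 0.08 and −0.10 ± 0.07 on the log2 scale (adjusted p = 0.635 for both), CRMP1 being at −0.089 without scaling. MICAL3, a flavin monooxygenase of the family that relays plexin signals to actin, had 32.6, 52.3 and 54.3 kb in shTDP43 and 68.8, 63.5 and 60.7 kb in shNC. Its groups did not overlap, but the log2 change of −0.31 ± 0.07 did not pass (limma adjusted p = 0.115); without shTDP43 replicate 1 it did (−0.24, adjusted p = 0.0469).

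RNase H treatment tests whether plexin peaks depend on hybrids. The RNase H libraries also had the lowest relative depth (0.991 in shTDP43 and 0.936 in shNC). The part of depth in the losses given here was not tested. In a fit of 2 RNase H and 6 untreated libraries, unscaled and with genotype as a term, 9 of 9 plexins were lower after RNase H (limma, largest adjusted p = 0.00178, for PLXNC1), beside 95% of all 12706 genes tested that were called, 94.4% lower and 0.669% higher, so the family behaved like most genes. PLXNA2, PLXNB2, PLXNB3, PLXNC1 and PLXND1 were listed at 0 in both RNase H libraries. PLXNA1 had 0.315 kb left in shTDP43 and 1.37 kb in shNC, and PLXNB1 had 0.926 kb left in shTDP43 and 0.764 kb in shNC. Both had been covered almost from end to end without the enzyme.

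PLXNA3 and PLXNA4 had the highest shares left after RNase H. PLXNA3 held 2.16 kb after RNase H in each genotype, in a peak with the same edges to the base, on chromosome X from 154474369 to 154476525. That was 16.1% of the untreated mean in shTDP43 and 17.7% in shNC, with a log2 change of −2.50 ± 0.17. PLXNA4 kept 2.80 kb in 4 peaks in the shTDP43 RNase H library, 15.9% of the untreated shTDP43 mean, and 10.7 kb in 9 peaks in the shNC one, 9.48% of the untreated shNC mean. In the shNC RNase H library 8.97 kb of this lay in the first 25 kb, against 1.76 kb in the shTDP43 one. With 1 RNase H library per genotype that difference has no replicate check. Both RNase H libraries shared the edge at 132560278, from which the peak ran to 132561617 in shTDP43 and to 132565809 in shNC.

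A peak site 158.9 kb inside PLXNA4 stood out by its treatment pattern, and it was singled out after its values were seen. Both RNase H libraries had a peak starting at 132416249; it ended at 132416623, with a second peak from 132416896 to 132417564, in shTDP43, and at 132417574 in shNC. The shNC peak overlapped peaks of all 3 untreated shNC libraries, but no peak of the 3 untreated shTDP43 libraries lay on it. The signal at that site was therefore called after RNase H in shTDP43 and not without it. When every untreated peak that overlaps an RNase H peak was left out whole, the log2 change of PLXNA4 between genotypes was −3.58. The peaks left out included wide ones in the first 25 kb. There the shTDP43 mean was 53.8% of the shNC mean, against 7.64% in the rest of the gene.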

How the data were processed

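DRIP-seq peak lists of 8 libraries were analysed: 3 untreated and 1 RNase H library each of shTDP43 and shNC. Each library had a list of its own, per the labels and the peak names, made with Bowtie2 2.4.4, SAMtools and MACS2 2.2.6 on hg38, per the submitters' processing notes; settings and the control used for peak calling are not given in the sources used here. The authors' deposited columns are a fold enrichment at the summit (a ratio), −log10 p and −log10 q values, and a score that is 10 times the −log10 q as a whole number. They were used only within a list.

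For each of 19970 coding genes (RefSeq, GRCh38.p14), the base pairs of the span plus 1 kb per side under merged peaks were counted (Python 3.11.15, pandas 2.3.3) and, for the genotype comparison, scaled to the median library total. log2(length + 100 bp) was fitted with limma 3.58.1 in R 4.3.3 (trended eBayes), for genes averaging 500 bp or more, with Benjamini-Hochberg adjustment over all of them and a threshold of 0.05. Covered length measures how much of a gene passes the caller's threshold, not hybrid amount. Relative depth was solved from fold and p at 5000 summits per library; 100% gave whole pileups within 0.001.

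On simulated data for shTDP43 against shNC, with 200 of 12810 genes changed, the fit recovered 63% of genes at a log2 change of 1 and 78% at 2, with 10 false among 151 calls. For RNase H against untreated (12706 genes) it recovered 18% and 55%, with 3 false among 76 calls.

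Named genes were all plexins; list genes that passed; the 3 most covered genes of each list in shNC; plexin neighbours that passed and the nearest tested ones beside PLXNA4; and the 5 genes most like it. CFL1 and MICAL1 were named for their constant covered length. Members, lists and rules were chosen with earlier results of these data known. Alternatives covered scaling, peak thresholds, pseudocount, filters, flanks, trend, RNase H peaks, single libraries and a replicate block. Promoter sequences and starts came from RefSeq GRCh38.p14; all 9 plexins matched, in 11 windows. One cell line marker is not reported here.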

Additional observations from a re-analysis of the deposited data

How the results depend on the processing

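PLXNA4 stayed lower in shTDP43 under all 18 alternatives. Its log2 change of −2.52 moved by more than the spread between replicates (0.16) to −2.72 without scaling, −2.06 with peaks of −log10 q of at least 10 and −3.58 without peaks also called after RNase H, and leaving out 1 library gave −2.63 to −2.41. The count of other plexins called was 0 in every setting except the −log10 q threshold of 10, where it was 1 (PLXND1). The 1 list gene called lower became 0 without scaling, with −log10 q from 5 or 10 up, without the trend and without RNase H peaks, 2 with a pseudocount of 1000 bp, and 0 to 3 with 1 library left out; for higher calls leaving out a library gave 0. Neighbours called lower were 0, but 2 with equal peak numbers, 2 with a pseudocount of 1000 bp, and 0 to 1 with 1 library left out.

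Over all genes, 96 called lower became 19 without scaling, 30 with −log10 q from 5 up, 30 from 10 up, 191 with a pseudocount of 1000 bp, 61 without the trend, 53 without RNase H peaks and 12 to 166 with 1 library left out. The 22 called higher became 1, 3, 2, 40 and 14 under no scaling, the 5 and 10 thresholds, 1000 bp and no trend, 44 with equal peak numbers, and 6 to 57 with 1 library left out (57 higher and 166 lower without shTDP43 replicate 1). The count higher after RNase H (85) became 1869 with scaling, 40 with a pseudocount of 10 bp, 6 with a mean of at least 2000 bp and 20 to 111 with 1 library left out. The cause was not tested.

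Same-numbered replicates did not deviate together (correlations −0.17, 0.06 and −0.17), and no library correlated best with its own number. The values thus gave no sign of pairing by number. With 3 libraries per group the check cannot exclude that same-numbered libraries were prepared together. With a replicate block the list count was 0 (DPYSL3 adjusted p = 0.0696), and 65 genes were lower and 9 higher.

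Signs turned for single genes: without scaling PLXNA1 was −0.055, PLXNB1 −0.010, PLXNB2 −0.016, PODXL −0.040, SEMA3B −0.021, L1CAM −0.038 and CRMP1 −0.089, and with −log10 q from 10 up ERBB2 was 0.17 and NRCAM 0.29. Hybrids below the peak caller's threshold are not seen in these lists, and the part of depth in the low coverage of PLXNC1 was not tested.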

Other observations

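Of the 61 semaphorin, co-receptor and partner genes, 50 were tested after RNase H, and 45 were lower, 2 higher and 3 not called. The 2 higher genes were the secreted ligands SEMA3A and SEMA3C, named after their values were seen; 0.669% of all genes tested were higher. SEMA3A, the ligand that signals through NRP1 with A-type plexins, held 3.63 kb in the shTDP43 and 4.19 kb in the shNC RNase H library, against 0, 0 and 0 kb in untreated shTDP43 and 0, 0.325 and 0 kb in untreated shNC (log2 change 4.97 ± 0.68; limma adjusted p = 4.74e-04). After RNase H, SEMA3C held 0.769 kb in shTDP43 and 2.37 kb in shNC, against 0 kb in each untreated shTDP43 library and 0.587, 0.627 and 0 kb in untreated shNC (log2 change 2.93 ± 0.84; adjusted p = 0.0148). The RNase H libraries had the lowest relative depth, whose part in the result was not tested.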
